A study of Homo sapiens with 6 samples.

Results

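The genes described here are 51 genes of mitosis, the mitotic spindle and cytokinesis, measured in glioma cells that differ in how they spread through brain tissue. They were chosen by gene symbol from a list of known mitotic genes. Of the 19775 genes with a probe set of 1 symbol on the array, and the 14513 tested, they make up 51; all 51 were measured and all 51 passed the filter on dim genes. Each gene is given by its brightest probe set, by mean over the 6 arrays.

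U87MGR is a highly invasive line and U87MGL a non-invasive line, both raised from U87MG over 4 rounds of injection into the striatum of athymic BALB/c nu/nu mice, dissociation of the tumour-bearing brain and renewed culture. U87MG, the parental line bought from a cell bank, is an established human glioblastoma line and the labels record no transplantation for it. Each group had 2 arrays of total RNA, called biological replicates in the titles. The titles of the derivatives also carry the numbers 2 and 3 without saying what they mark, so the spread within these groups may hold a difference between sublines. The host mice lack mature T cells and keep other immune cells, so the selection behind both derivatives took place without a full immune response. The labels describe culture in medium with serum for maintenance and a serum-free medium for sphere assays, and do not name the medium used before RNA was taken. The series asks how mRNA of the invasive cells differs from that of the non-invasive and parental cells.

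A cell enters mitosis when the kinase CDK1, bound to cyclin B, is switched on. Chromosomes then condense, spindle microtubules attach to kinetochores, and the spindle checkpoint holds back the anaphase-promoting complex (APC/C) until every chromosome is attached. APC/C with CDC20 then marks cyclin B and securin for destruction, sister chromatids part, and the central spindle and an actomyosin ring divide the cell. Most of these genes are transcribed late in the cell cycle under the MuvB complex with B-MYB and FOXM1, which acts through a promoter element called the cell cycle genes homology region (CHR), often with CCAAT boxes bound by NF-Y nearby. The mRNA levels of these genes are widely read as a measure of how many cells in a culture are dividing.

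The glioma label was checked against marker genes. The line expressed VIM and CD44, markers of mesenchymal glioma lines, at high log2 signals, while GFAP, SOX2 and OLIG2 stayed close to the filter and S100B lay below it, in all 3 groups. Of the glioma markers CHI3L1 fell in both derivatives (limma adjusted p = 0.0185 in U87MGR and 0.00795 in U87MGL). Markers of cells that could be carried over from brain lay partly below the filter: 4 of 9 measured for microglia, 3 of 10 for endothelium, 2 of 10 for neurons and 3 of 7 for oligodendrocytes. The rest lay above it, among them CSF1R of microglia and CNP of oligodendrocytes. The microglia marker TMEM119 was at 4.57 and 4.84 in U87MGR, 6.12 and 4.84 in U87MGL, and 7.07 and 5.88 in U87MG. The log2 of the summed signal of the microglia markers was 8.85 to 8.87 in U87MGR, 8.86 to 8.98 in U87MGL and 8.89 to 9.11 in U87MG. For endothelial markers it was 8.76 to 8.78 in U87MGR, 8.52 to 8.62 in U87MGL and 8.69 to 8.99 in U87MG. For neuron markers it was 13.20 to 13.29 in U87MGR, 13.13 to 13.26 in U87MGL and 12.60 to 12.95 in U87MG, so that it was higher in all 4 derivative arrays, as most mitosis genes were. Most of that sum was TUBB3, a tubulin, with log2 signals of 12.93 and 13.03 in U87MGR, 12.84 and 13.04 in U87MGL, and 12.60 and 12.08 in U87MG. Of the other neuron markers, STMN2 and NEFL lay below the filter and the rest above it, among them MAP2 and GAD1. SNAP25 was at 9.36 and 9.32 in U87MGR, 9.73 and 9.44 in U87MGL, and 9.33 and 9.21 in U87MG. SYT1 was higher in both U87MGR arrays (7.20 and 7.53) than in U87MGL (6.76 and 6.48) and U87MG (6.77 and 6.67). For oligodendrocyte markers it was 10.10 to 10.36 in U87MGR, 10.08 to 10.10 in U87MGL and 10.11 to 10.19 in U87MG, and for 3 red cell markers it was 7.31 to 7.53 over all arrays. Of the brain and blood marker lists, 1 gene was called in any comparison, MAP2, lower in U87MGL than in U87MG. The part of other cells in the results below was not tested.

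Array medians lay between 5.29 and 5.35 on the log2 scale. Control RNA spiked into the samples parted the arrays along lines that followed the groups only in part. U87MGR replicate 1 and both U87MGL arrays formed 1 batch, U87MGR replicate 2 and U87MG replicate 1 a second, and U87MG replicate 2 stood alone. Distances over 45 spike-in probe sets were 0.90 to 1.44 within batches and 5.59 to 8.84 between them. The U87MGL arrays shared no batch with the U87MG arrays. The mean log2 signal of the labelling controls was 6.33 and 7.38 in U87MGR, 6.50 and 6.37 in U87MGL, and 7.44 and 7.79 in U87MG. This mean was lower in all 4 derivative arrays than in both U87MG arrays, and its part in the results was not tested. The 3′ minus 5′ signal of the actin control, a sign of RNA quality, was 0.28 and 0.25 in U87MGR, 0.39 and 0.28 in U87MGL, and -0.01 and 0.22 in U87MG (log2). It was higher in all 4 derivative arrays than in both U87MG arrays, as most mitosis genes were. The same measure of the GAPDH control was 0.047 and 0.236 in U87MGR, 0.033 and 0.040 in U87MGL, and 0.055 and 0.073 in U87MG. Only U87MGR replicate 2 lay above both U87MG arrays there. The part of RNA quality in the results was not tested.

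Promoter sequence is shown because most of these genes were higher together in both derivatives. RefSeq promoters (GRCh38.p14, from 250 bases before to 50 after the annotated start) matched 44 of the 51 genes, with 54 entries in all. The CHR letters TTTGAA or TTCGAA, searched on both strands, stood in 36 of the 54 (66.7%), against 16.4% of 35116 promoters in the table and 12.1% of the 16741 promoters of genes tested. From 60 bases before to 30 bases after the start, they stood in 48.1% of the mitosis promoters, against 3.21% of those of genes tested. CCAAT stood in 37 (68.5%, against 34.2% of promoters of genes tested), both kinds in 27 of the 54 (against 4.77%), and the E2F letters TTTGGCG or TTTCGCG in 6 (11.1%, against 4.35%). A match of these letters is a description of the sequence and shows no binding.

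The promoters below belong to the 5 matched genes with the largest difference of U87MGR from U87MG and to INCENP, which had the smallest. They were chosen after the values were seen. Each runs 5′ to 3′ on the gene's strand from position -170 to position 30, counted from the annotated start, and capitals mark CHR and CCAAT letters on either strand, where ATTGG is CCAAT and TTCAAA is TTTGAA read from the other strand. The regions are chr7:36389692-36389891 (plus strand) for ANLN, chr10:128126394-128126593 (minus) for MKI67, chr15:69414179-69414378 (plus) for KIF23, chrX:70289934-70290133 (plus) for KIF4A, chr4:103198314-103198513 (minus) for CENPE and chr11:62123841-62124040 (plus) for INCENP.
ANLN: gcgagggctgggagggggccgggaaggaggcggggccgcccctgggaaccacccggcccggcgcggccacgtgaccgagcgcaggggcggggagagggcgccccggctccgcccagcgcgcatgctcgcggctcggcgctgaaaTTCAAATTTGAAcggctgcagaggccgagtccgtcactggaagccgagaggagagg
MKI67: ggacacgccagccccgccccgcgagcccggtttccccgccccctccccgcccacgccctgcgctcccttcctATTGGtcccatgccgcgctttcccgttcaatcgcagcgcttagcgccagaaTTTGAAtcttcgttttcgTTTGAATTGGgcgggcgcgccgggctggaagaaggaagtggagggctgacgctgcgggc
KIF23: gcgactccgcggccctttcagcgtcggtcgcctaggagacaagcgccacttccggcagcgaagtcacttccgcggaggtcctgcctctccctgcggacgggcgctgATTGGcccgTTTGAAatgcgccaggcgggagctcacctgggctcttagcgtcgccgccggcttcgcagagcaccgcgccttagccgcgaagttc
KIF4A: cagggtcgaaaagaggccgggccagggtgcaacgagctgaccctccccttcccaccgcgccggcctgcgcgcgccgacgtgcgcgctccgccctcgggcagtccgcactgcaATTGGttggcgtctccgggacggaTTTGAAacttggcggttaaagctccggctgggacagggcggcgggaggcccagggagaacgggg
CENPE: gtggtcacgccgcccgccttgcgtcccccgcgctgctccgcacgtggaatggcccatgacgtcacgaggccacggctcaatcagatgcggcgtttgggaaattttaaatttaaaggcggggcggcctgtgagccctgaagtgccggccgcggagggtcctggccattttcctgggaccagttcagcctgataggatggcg
INCENP: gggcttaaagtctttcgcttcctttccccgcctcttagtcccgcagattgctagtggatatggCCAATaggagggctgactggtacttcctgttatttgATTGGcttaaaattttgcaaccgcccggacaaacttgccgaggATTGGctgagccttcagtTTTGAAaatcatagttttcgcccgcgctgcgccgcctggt

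ANLN has a CHR match on each strand side by side and no CCAAT in this stretch. In MKI67 a CHR match and a CCAAT on the other strand share 1 base. KIF23 and KIF4A have 1 of each, with the CCAAT upstream of the CHR letters. CENPE has neither in these bases, while INCENP, in which both derivatives overlapped with U87MG, has 1 CHR match and 3 CCAAT. Among these 6, then, the letters are found in 4 genes with large differences and in the gene with the smallest.

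**Figure D1:**
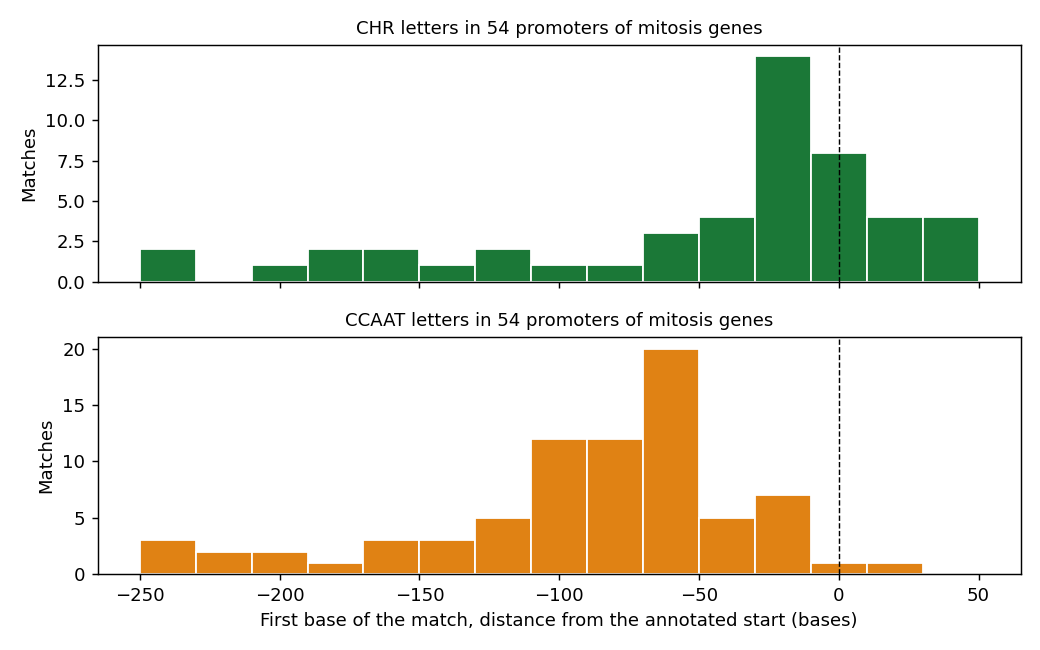
Positions of CHR letters (top) and CCAAT (bottom) in 54 promoters of mitosis genes, in bases from the annotated start (dashed line at 0); the y axis counts matches per bin. CHR matches crowd around and just before the start, where 48.1% of these promoters have one from 60 bases before to 30 after it, against 42.6% with a CCAAT there.

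U87MGR against U87MG asked how the invasive line differs from the cells it came from. Nearly all mitosis genes lay higher in U87MGR. By limma, 24 of the 51 rose at an adjusted p under 0.05 and 0 fell, and 50 of the 51 differences lay above 0. Of all genes tested, 1.86% were called higher and 1.44% lower. The median difference of the mitosis genes was 1.10 on the log2 scale, a 2.14-fold higher level, with a range of -0.08 to 2.02, beside a median of -0.01 over all genes tested. At an unadjusted p under 0.05, 48 lay higher and 0 lower (11.0% and 9.78% of all genes). In 50 of them both U87MGR arrays lay above both U87MG arrays and in 0 below, against 24.2% of all genes in each direction. In a culture, more cells in division and more of these mRNAs per dividing cell cannot be told apart.

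U87MGL against U87MG asked the same of the non-invasive line, and mitosis genes were higher there too. By limma, 29 of the 51 rose and 0 fell, and all 51 differences lay above 0, where 3.02% of all genes were called higher and 1.80% lower. The median difference was 1.01 (2.01-fold; range 0.10 to 1.82), beside -0.02 over all genes. At an unadjusted p under 0.05, 49 were higher and 0 lower (13.2% and 10.1% of all genes), and 49 had both U87MGL arrays above both U87MG arrays, with 0 below (28.1% and 28.3% of all genes). The U87MG arrays are common to both comparisons, so their chance values enter both. In 49 of the 51 genes, all but CENPA and INCENP, all 4 derivative arrays lay above both U87MG arrays, as 17.1% of genes tested did.

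By gene, 22 passed in both comparisons, 2 in U87MGR alone (CENPF and KIF14), 7 in U87MGL alone (BIRC5, CCNA2, ECT2, KIF11, KIF20A, PRC1 and TOP2A) and 20 in neither. Passing in 1 derivative and not in the other does not show that the derivatives differ, and that difference was tested by itself below. The 20 genes that passed in neither still had a median difference of 0.74 between U87MGR and U87MG. They are ASPM, CCNB1, CCNB2, CDC25C, CENPA, DLGAP5, INCENP, KIF15, KIF18A, MAD2L1, MELK, NEK2, NUSAP1, PLK1, PLK4, PTTG1, RACGAP1, SMC4, SPC25 and UBE2C.

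**Figure D2:**
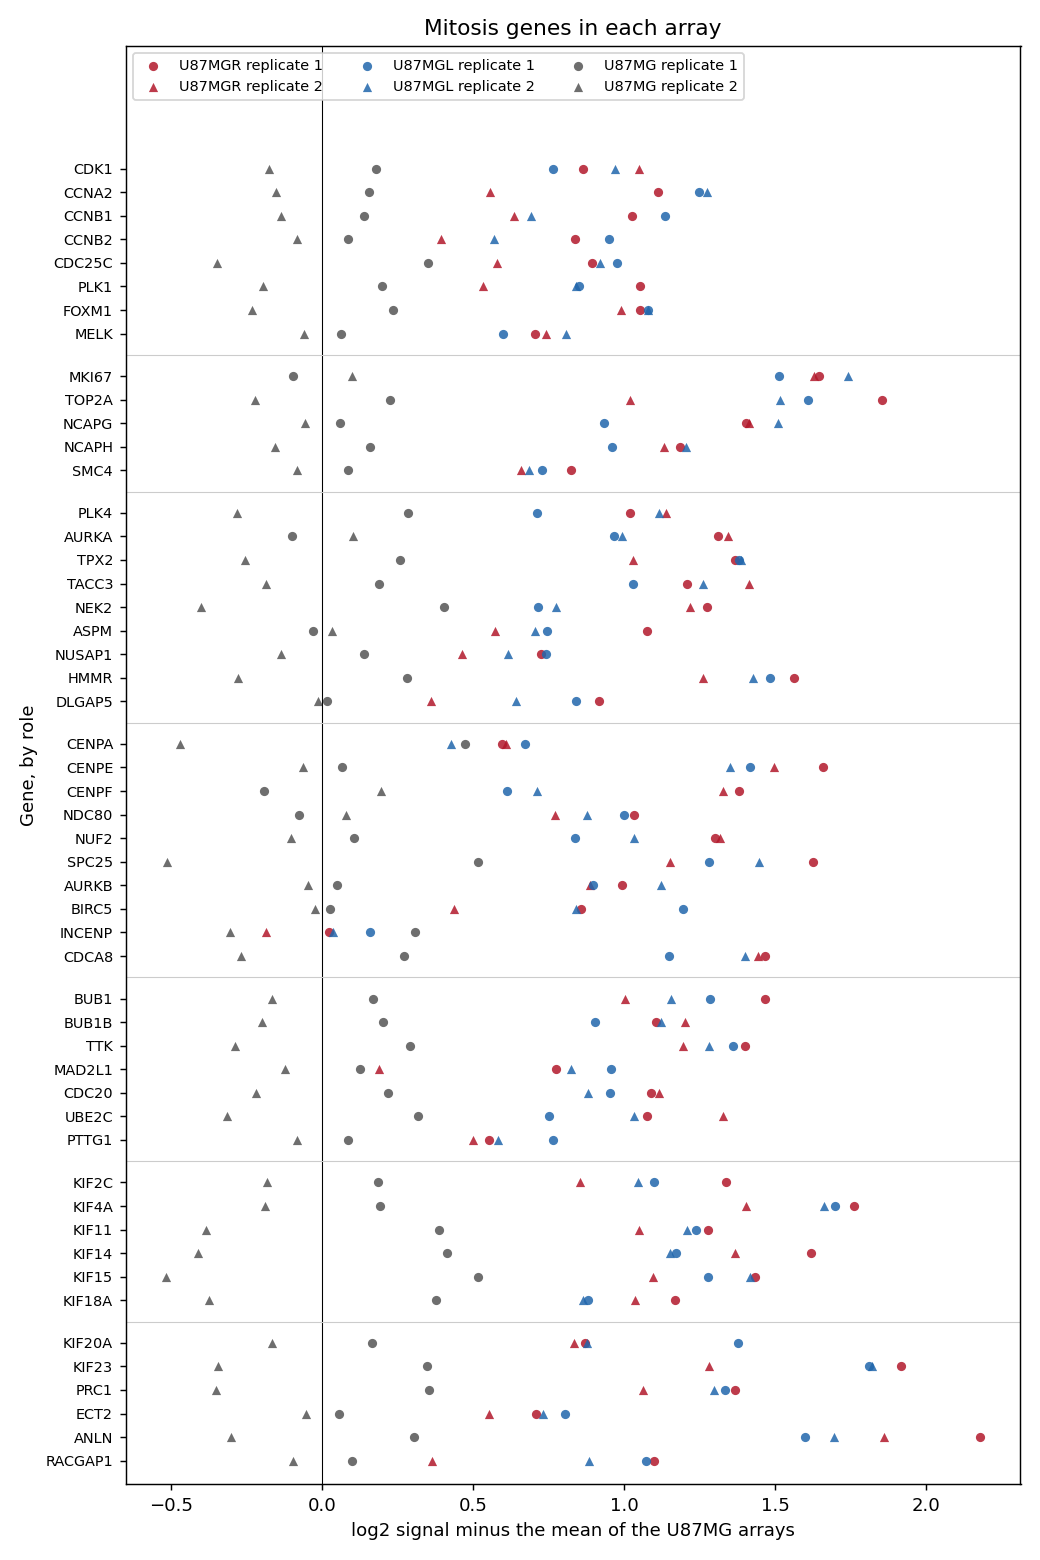
The log2 signal of each of the 51 mitosis genes on each of the 6 arrays, less the mean of the U87MG arrays, with genes grouped by role. The 4 derivative arrays lie to the right of both U87MG arrays in 49 genes, and U87MG replicate 2 is the lowest array in 46.

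The arrays of a group were not equally high. U87MG replicate 2 was the lowest of the 6 arrays in 46 of the 51 genes and U87MG replicate 1 in the other 5. The replicates of U87MG differed by a median of 0.37 over the mitosis genes (replicate 1 minus replicate 2, with 46 higher in replicate 1), beside 0.03 over all genes. Those of U87MGR differed by 0.21 (40 higher in replicate 1) and those of U87MGL by 0.03 (29 higher in replicate 1). The highest array was U87MGR replicate 1 in 24 genes. Within the batch that holds U87MGR replicate 2 and U87MG replicate 1, 50 of the 51 genes were higher in U87MGR, with a median difference of 0.77. Of all 14513 genes tested, 7164 were higher in U87MGR in this batch. Within it MKI67 differed by 1.73, ANLN by 1.56 and CENPE by 1.43, beside 1.64, 2.02 and 1.58 over all arrays. Most of the 51 genes differed less there than over all arrays, where the median was 1.10, and a few, MKI67 among them, differed more. Genes that differed less included KIF23 (0.93), TOP2A (0.79), CCNA2 (0.40), PLK1 (0.33) and MAD2L1 (0.06), and INCENP was at -0.49. No batch held both U87MGL and U87MG.

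Genes that bring cells into mitosis had the lowest median difference of the 7 roles, 0.81 in U87MGR, where 2 of 8 rose, and 0.89 in U87MGL, where 3 of 8 rose. FOXM1, the transcription factor that drives many late cell cycle genes, had log2 signals of 9.92 and 9.85 in U87MGR, 9.94 and 9.94 in U87MGL, and 9.10 and 8.63 in U87MG. All 4 derivative arrays lay within a narrow band above the parental arrays, 2.03-fold higher in U87MGR (log2 difference 1.02, SE 0.19, limma adjusted p = 0.0415) and 2.11-fold higher in U87MGL (1.08, adjusted p = 0.0293). CDK1, the kinase of mitotic entry, stood at 10.97 and 11.16 in U87MGR, 10.87 and 11.08 in U87MGL, and 10.29 and 9.93 in U87MG. It rose in both, by 1.94-fold in U87MGR (limma adjusted p = 0.0458) and by 1.82-fold in U87MGL (adjusted p = 0.0495), close to the threshold.

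CCNB1, the cyclin B partner of CDK1, had signals of 11.86 and 11.47 in U87MGR, 11.97 and 11.53 in U87MGL, and 10.98 and 10.70 in U87MG. Neither derivative overlapped with U87MG, but neither difference from it passed: 0.83 in U87MGR (SE 0.23, limma adjusted p = 0.0961) and 0.91 in U87MGL (adjusted p = 0.0684). CCNA2, cyclin A, which acts from S phase to early mitosis, was at 9.90 and 9.35 in U87MGR, 10.04 and 10.06 in U87MGL, and 8.94 and 8.63 in U87MG. It rose 2.39-fold in U87MGL (1.26, limma adjusted p = 0.0293) and differed by 0.83 in U87MGR (adjusted p = 0.0921). PLK1, the Polo kinase that activates CDC25C and matures centrosomes, differed by 0.79 in U87MGR (limma adjusted p = 0.108) and by 0.85 in U87MGL (limma adjusted p = 0.0841). The smallest differences were those of CCNB2, a second cyclin B, in U87MGR (0.61) and of the kinase MELK in U87MGL (0.70), and CDC25C, the phosphatase that switches on CDK1, differed by 0.73 in U87MGR and 0.95 in U87MGL without passing in either.

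Among chromosome proteins 3 of 5 rose in U87MGR and 4 of 5 in U87MGL, with medians of 1.41 in U87MGR and 1.22 in U87MGL. MKI67 encodes Ki-67, which coats mitotic chromosomes and is the common stain for cycling tumour cells. Its signals were 10.20 and 10.18 in U87MGR, 10.07 and 10.30 in U87MGL, and 8.46 and 8.65 in U87MG. The gap between derivatives and parent far exceeded the spread within each group, and was 1.64 in U87MGR (SE 0.17, 3.11-fold, limma adjusted p = 0.0137) and 1.63 in U87MGL (SE 0.17, 3.09-fold, limma adjusted p = 0.00907). MKI67 was also 1 of the 5 genes that were higher in U87MG replicate 2 than in replicate 1. Its 3 other probe sets differed by 1.03, 1.30 and 1.61 in U87MGR and by 1.49, 1.41 and 1.77 in U87MGL.

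TOP2A, the topoisomerase that untangles sister chromatids, was at 12.13 and 11.29 in U87MGR, 11.88 and 11.79 in U87MGL, and 10.50 and 10.05 in U87MG. Its U87MGR replicates lay far apart, and it rose in U87MGL (1.56, 2.95-fold, limma adjusted p = 0.0343) while 1.43 in U87MGR narrowly missed (limma adjusted p = 0.0502). The condensin subunits NCAPG and NCAPH, which help compact chromosomes, rose by 1.41 and 1.16 in U87MGR and by 1.22 and 1.08 in U87MGL. SMC4, the condensin core ATPase, differed least in both, by 0.74 in U87MGR (limma adjusted p = 0.0565) and 0.71 in U87MGL (limma adjusted p = 0.0531).

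Of 9 spindle genes, 4 rose in each derivative (AURKA, TPX2, TACC3 and HMMR in both), with medians of 1.20 in U87MGR and 0.91 in U87MGL. AURKA, the Aurora kinase of spindle poles, had signals of 11.60 and 11.63 in U87MGR, 11.26 and 11.28 in U87MGL, and 10.19 and 10.39 in U87MG. Its 3 pairs of replicates lay close together and did not overlap, with differences from U87MG of 1.33 in U87MGR (SE 0.15, 2.51-fold, limma adjusted p = 0.0185) and 0.98 in U87MGL (1.97-fold, limma adjusted p = 0.0228). TPX2, which activates AURKA on the spindle, was 2.29-fold higher in U87MGR and 2.61-fold higher in U87MGL. HMMR, a spindle assembly factor also known as a hyaluronan receptor, was at 11.22 and 10.92 in U87MGR, 11.14 and 11.09 in U87MGL, and 9.94 and 9.38 in U87MG, a rise of 1.41 in U87MGR (limma adjusted p = 0.0295) and of 1.45 in U87MGL (limma adjusted p = 0.0218). TACC3, which crosslinks kinetochore fibres, rose 2.48-fold in U87MGR and 2.21-fold in U87MGL.

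The other 5 spindle genes passed in neither. NEK2, a centrosome kinase, was at 10.16 and 10.11 in U87MGR, 9.60 and 9.66 in U87MGL, and 9.29 and 8.49 in U87MG, with parental replicates far apart. It differed by 1.25 in U87MGR (limma adjusted p = 0.0529) and 0.74 in U87MGL (limma adjusted p = 0.151). NUSAP1, a microtubule bundler, had the smallest difference of the group in both lines, 0.59 in U87MGR and 0.68 in U87MGL. PLK4, the kinase that starts centriole duplication, differed by 1.08 in U87MGR and 0.91 in U87MGL. The spindle pole protein gene ASPM and DLGAP5, which stabilises kinetochore fibres, differed by 0.82 and 0.64 in U87MGR and by 0.72 and 0.74 in U87MGL.

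Of 10 kinetochore and chromosomal passenger genes, 6 rose in each derivative, with medians of 1.12 in U87MGR and 0.97 in U87MGL. CENPE, the kinesin that carries chromosomes to the spindle equator, had signals of 9.61 and 9.45 in U87MGR, 9.37 and 9.30 in U87MGL, and 8.02 and 7.89 in U87MG. The derivatives stood well apart from the parent, with rises of 1.58 in U87MGR (SE 0.16, 2.98-fold, limma adjusted p = 0.0137) and 1.38 in U87MGL (SE 0.16, 2.61-fold, limma adjusted p = 0.0104). NDC80 and NUF2, subunits of the complex that holds microtubules, rose by 0.90 and 1.31 in U87MGR and by 0.94 and 0.93 in U87MGL. SPC25, a further subunit, differed by 1.39 in U87MGR (limma adjusted p = 0.0750) and 1.36 in U87MGL (limma adjusted p = 0.0689), its U87MG replicates standing at 8.32 and 7.30.

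CENPF, a large kinetochore protein, rose in U87MGR (1.35, limma adjusted p = 0.0204) and differed by 0.66 in U87MGL (limma adjusted p = 0.0875). Its other probe set above the filter differed by 1.77 in U87MGR and by 1.47 in U87MGL. The passenger complex corrects faulty attachments. Its kinase AURKB was at 9.02 and 8.91 in U87MGR, 8.92 and 9.15 in U87MGL, and 8.07 and 7.98 in U87MG. AURKB rose by 0.94 (1.92-fold, limma adjusted p = 0.0349) in U87MGR and by 1.01 (2.01-fold, limma adjusted p = 0.0230) in U87MGL, and the borealin gene CDCA8 rose by 1.45 in U87MGR and 1.27 in U87MGL. BIRC5, survivin, rose in U87MGL by 1.02 and differed by 0.64 in U87MGR (limma adjusted p = 0.139).

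INCENP, the scaffold of the same complex, differed least of the 51 genes in both lines. Its signals were 6.01 and 5.80 in U87MGR, 6.14 and 6.02 in U87MGL, and 6.29 and 5.68 in U87MG. Both derivatives overlapped with U87MG, while the U87MGR arrays lay below the U87MGL arrays, and the differences from U87MG of -0.08 in U87MGR (limma adjusted p = 0.876) and 0.10 in U87MGL (limma adjusted p = 0.834) changed sign in some alternative settings. INCENP has 1 probe set and the lowest level of the 51 genes. CENPA, the histone of the centromere, was at 8.95 and 8.97 in U87MGR, 9.03 and 8.79 in U87MGL, and 8.83 and 7.89 in U87MG, and did not pass, with 0.60 in U87MGR and 0.55 in U87MGL.

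Of 7 checkpoint and anaphase genes, 4 rose in each derivative (BUB1, BUB1B, TTK and CDC20), with medians of 1.15 in U87MGR and 0.92 in U87MGL. TTK, the kinase Mps1 at the head of the spindle checkpoint, had signals of 8.95 and 8.74 in U87MGR, 8.91 and 8.83 in U87MGL, and 7.84 and 7.26 in U87MG, with rises of 1.30 in U87MGR (2.46-fold, limma adjusted p = 0.0345) and 1.32 in U87MGL (2.50-fold, limma adjusted p = 0.0254). BUB1, a checkpoint kinase at kinetochores, and BUB1B, which encodes BubR1 of the mitotic checkpoint complex, rose by 1.23 and 1.15 in U87MGR and by 1.22 and 1.01 in U87MGL. CDC20, the APC/C activator on which the checkpoint acts, rose 2.14-fold in U87MGR and 1.89-fold in U87MGL.

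The others passed in neither line. MAD2L1, the checkpoint protein that binds CDC20, was at 10.59 and 10.00 in U87MGR, 10.77 and 10.64 in U87MGL, and 9.94 and 9.69 in U87MG, and had the smallest difference of this group in U87MGR (0.48). UBE2C, the ubiquitin-conjugating enzyme of APC/C, differed by 1.20 in U87MGR (limma adjusted p = 0.0502) and 0.89 in U87MGL. PTTG1, securin, differed by 0.53 in U87MGR and by 0.67 in U87MGL, the smallest there.

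Of 6 mitotic kinesins, 3 rose in each derivative, with medians of 1.21 in U87MGR and 1.19 in U87MGL. KIF4A, a chromosome-bound kinesin that shortens central spindle microtubules, had signals of 10.02 and 9.67 in U87MGR, 9.96 and 9.92 in U87MGL, and 8.45 and 8.07 in U87MG. It rose by 1.58 in U87MGR (2.99-fold, limma adjusted p = 0.0185) and 1.68 in U87MGL (3.20-fold, limma adjusted p = 0.0116). KIF2C, which takes microtubules apart at the centromere, rose by 1.09 in U87MGR and 1.07 in U87MGL. KIF14, a kinesin of the midbody, rose in U87MGR (1.49, limma adjusted p = 0.0384) and differed by 1.16 in U87MGL (limma adjusted p = 0.0600). KIF11, which pushes the spindle poles apart, rose in U87MGL (1.22) and differed by 1.16 in U87MGR (limma adjusted p = 0.0621). KIF15, a motor that supports the bipolar spindle, and KIF18A, which damps chromosome movement, differed by 1.26 and 1.10 in U87MGR and by 1.35 and 0.87 in U87MGL, and passed in neither.

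Of 6 central spindle and cytokinesis genes, 2 rose in U87MGR (median 1.03) and 5 in U87MGL (median 1.22). ANLN, anillin, which links the contractile ring to the membrane, had signals of 11.83 and 11.51 in U87MGR, 11.25 and 11.35 in U87MGL, and 9.96 and 9.35 in U87MG. It had the largest difference of the 51 genes in U87MGR, 2.02 (SE 0.23, 4.05-fold, limma adjusted p = 0.0185), and the second largest among these 6 in U87MGL, 1.65 (SE 0.23, 3.13-fold, limma adjusted p = 0.0182). KIF23, the kinesin of the centralspindlin complex, was at 9.87 and 9.24 in U87MGR, 9.77 and 9.78 in U87MGL, and 8.30 and 7.61 in U87MG. It rose by 1.60 in U87MGR (limma adjusted p = 0.0383) and, with the largest difference of the 51 genes there, by 1.82 in U87MGL (SE 0.29, 3.52-fold, limma adjusted p = 0.0230).

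RACGAP1, the partner of KIF23 in that complex, passed in neither, with 0.73 in U87MGR and 0.98 in U87MGL. KIF20A, which brings the passenger complex to the central spindle, and PRC1, which bundles its microtubules, rose in U87MGL by 1.13 and 1.31 and differed by 0.85 and 1.22 in U87MGR. ECT2, the exchange factor that switches on RhoA at the cleavage site, had the smallest difference of this group in both lines, 0.63 in U87MGR and 0.77 in U87MGL, where it passed (limma adjusted p = 0.0411).

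The number of genes called rested on single arrays and on how the spike-in batches were treated. In limma with 1 array left out, the count of genes called higher in U87MGR was 0 without U87MGR replicate 1 (39 at an unadjusted p under 0.05), 0 without U87MGR replicate 2 (49), 10 without either U87MGL array and 8 without U87MG replicate 2. Over all 14513 genes the same fits called 5, 1, 111 and 150 higher, beside 270 with all arrays. For U87MGL it was 2 without U87MGL replicate 1, 0 without U87MGL replicate 2 (46 unadjusted), 7 without either U87MGR array and 7 without U87MG replicate 2, where 87, 17, 124 and 219 of all genes were called higher, beside 438. With the batches as a block it was 0 for both (39 and 22 unadjusted, 2 batches) or 5 and 0 (37 and 25 unadjusted, 3 batches, which leaves U87MG replicate 2 out), while the median was 1.04 in U87MGR and 0.90 in U87MGL with 2 batches, and 0.77 and 0.66 with 3. The block fits called 5 (2 batches) and 96 (3 batches) of all genes higher in U87MGR and 0 in U87MGL in both.

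U87MGR against U87MGL asked whether the invasive line differs from the non-invasive one in these genes. By limma, 0 of the 51 rose and 0 fell, where 0.0413% of all genes were called higher and 0.117% were called lower. At an unadjusted p under 0.05, 1 was higher, CENPF, and 0 were lower (3.91% and 4.94% of all genes). The differences fell on both sides of 0, with 25 above and 26 below, a median of -0.02 and a range of -0.43 to 0.69. The arrays did not overlap in 11 genes in which U87MGR was higher and in 9 in which it was lower, against 23.3% of all genes in each direction.

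The intervals show how large a difference could have been missed. The 95% interval held 0 in 50 of the 51 genes and lay within 1 log2 unit of 0 on both sides in 49, all but CENPF and NEK2. The half-width had a median of 0.51. By its brightest probe set, MKI67 was at 10.20 and 10.18 in U87MGR and 10.07 and 10.30 in U87MGL. It differed by 0.01, with an interval of -0.38 to 0.40. FOXM1 differed by -0.06 (-0.51 to 0.39), CDK1 by 0.09 (-0.35 to 0.53), CCNB1 by -0.08 (-0.62 to 0.45) and AURKB by -0.07 (-0.45 to 0.31). CCNB1 had the widest interval of these 5. PLK1 differed by -0.05 (-0.59 to 0.48), and TOP2A by -0.13 with a wider interval (-0.82 to 0.56).

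CENPF, by its brightest probe set, came nearest to a difference between the derivatives. Its signals were 11.27 and 11.21 in U87MGR and 10.50 and 10.60 in U87MGL, with replicates close together, and the difference was 0.69 (SE 0.18, 1.62-fold, interval 0.27 to 1.12). The unadjusted p of the limma fit over all genes was 0.00618 and its adjusted p 0.288. The other CENPF probe set above the filter differed by 0.30, and one below the filter by 0.34. NEK2 differed by 0.50, NUF2 by 0.37, ANLN by 0.37 and AURKA by 0.35 on the log2 scale, KIF14 by 0.33, UBE2C by 0.31, KIF18A by 0.23 and NCAPG by 0.19. Further probe sets above the filter differed by 0.06 for NEK2, 0.44 for ANLN, 0.27 and -0.04 for AURKA, 0.41 for KIF14 and 0.245 for NCAPG. Among those below 0, CCNA2 was at -0.43 (limma adjusted p = 0.639), MAD2L1 at -0.41, BIRC5 at -0.37, KIF20A at -0.27 and CDC25C at -0.21. For these, further probe sets above the filter differed by 0.04 in CCNA2, -0.53 and -0.32 in MAD2L1 and -0.21 in CDC25C. Those of BIRC5 differed by -0.60, -0.23 and -0.38. By their brightest probe sets, genes of every role lay near 0. Among them were MKI67 (0.01), MELK and KIF2C (0.02 each), SPC25 (0.03), BUB1 (0.01), HMMR (-0.04) and PRC1 (-0.10). Further probe sets above the filter differed by -0.45, -0.12 and -0.16 in MKI67 and by -0.20 in HMMR. Those of BUB1 differed by -0.36 and 0.15, and that of KIF2C by -0.06. All further probe sets of MKI67 thus lay below 0.

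Within the batch of U87MGR replicate 1 and both U87MGL arrays, 39 of the 51 genes were higher in U87MGR, with a median of 0.10 and CENPF at 0.72. Of all 14513 genes tested, 7206 were higher in U87MGR there. U87MGR replicate 1 is the array that was highest in 24 of the genes. Without 1 array in turn, the count of calls stayed 0 and the median lay between -0.17 and 0.10. BUB1 is the 1 gene with probe sets that differed by over 0.3 on the log2 scale in opposite directions here, at -0.36 and, in a probe set below the filter, 0.34. At that size neither comparison with U87MG had such a gene, and smaller opposed differences were not counted.

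**Figure D3:**
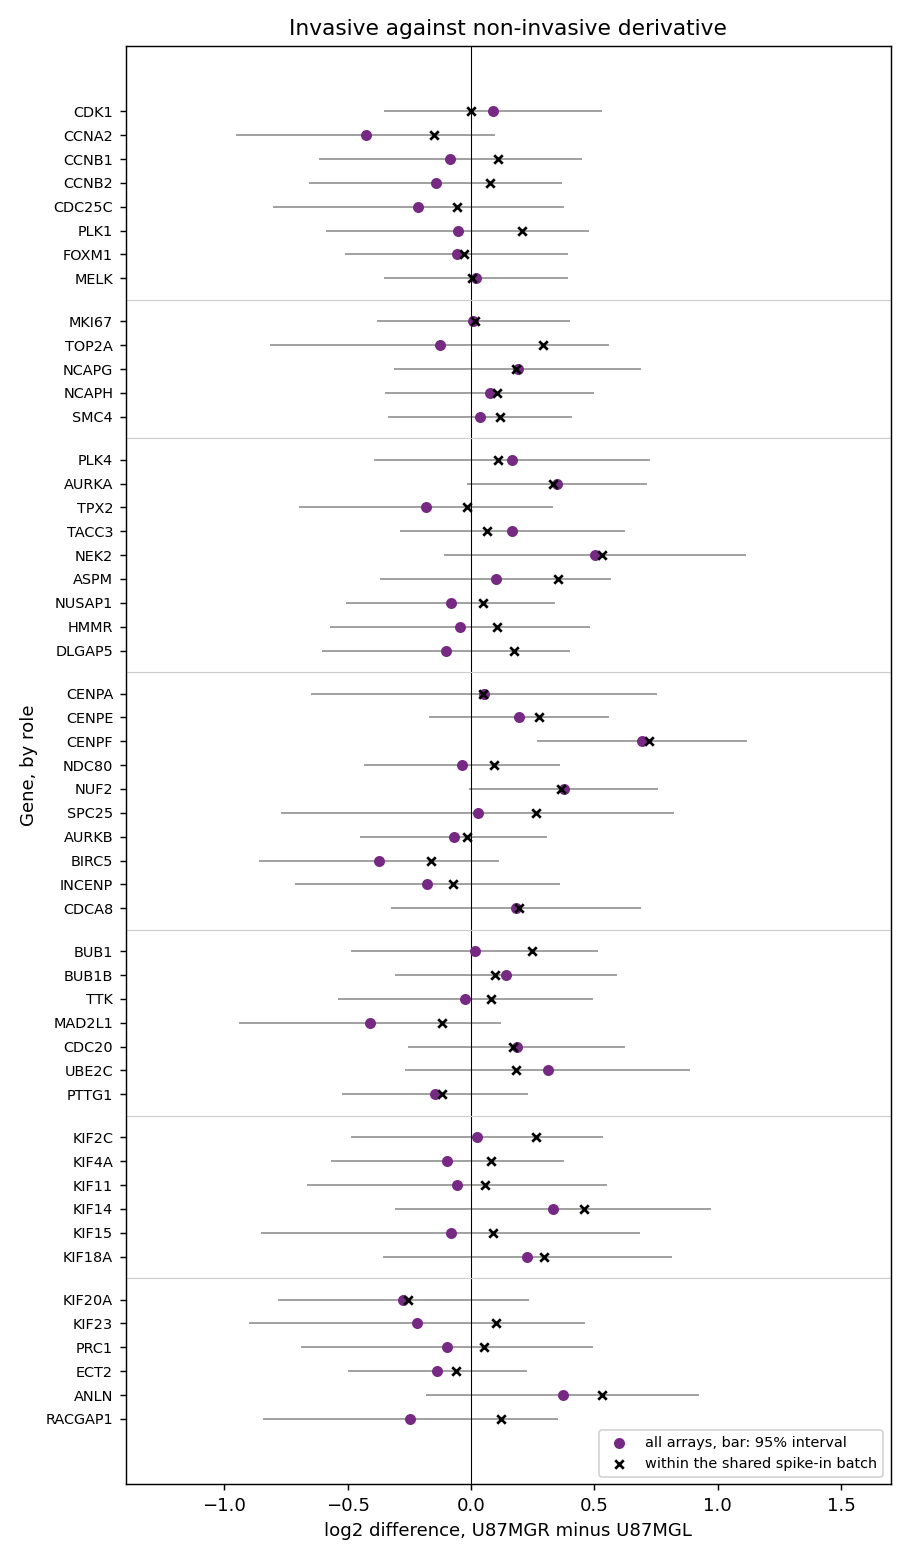
Log2 differences of the 51 mitosis genes, U87MGR minus U87MGL, with 95% intervals from the limma fit over all arrays (points and bars) and values within the shared spike-in batch (crosses). The intervals cross 0 in all genes but CENPF, and the crosses lie above 0 in 39.

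Genes of neighbouring processes were taken from lists written from textbook knowledge. Of 34 tested kinetochore and centromere genes outside the 51, 9 rose and 0 fell in U87MGR (median 0.69), and 9 rose and 0 fell in U87MGL (median 0.71). CENPI, of the inner kinetochore, had signals of 7.67 and 7.36 in U87MGR, 7.64 and 7.89 in U87MGL, and 5.62 and 6.03 in U87MG, a rise of 1.69 in U87MGR (limma adjusted p = 0.0185) and 1.94 in U87MGL (limma adjusted p = 0.0104). SGO1, shugoshin, which protects cohesion at centromeres, rose by 1.64 in U87MGR and 1.77 in U87MGL, but both U87MG arrays (4.61 and 4.44) lay below the filter of 4.73, so the size of these differences is uncertain. Of 35 centrosome, spindle and midbody genes, 9 rose in U87MGR (median 0.68) and 12 in U87MGL (median 0.65), and 0 fell in either. SHCBP1, of the midbody, rose by 1.41 in U87MGR and 1.72 in U87MGL. CEP55, which recruits the abscission machinery, rose by 1.42 in U87MGR, and HAUS2, of augmin, by 1.22 in U87MGL.

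Of 16 cohesin, separase and other condensin genes, 2 rose in U87MGR (median 0.35) and 3 in U87MGL (median 0.54), and 0 fell in either. The separase gene ESPL1 rose by 1.23 in U87MGR and 1.30 in U87MGL, with the condensin genes NCAPG2 in U87MGR (1.12) and NCAPD2 in U87MGL (1.11) next in size. Of 47 genes of DNA replication and the G1/S transition, 4 rose in U87MGR (median 0.62) and 6 in U87MGL (median 0.69), and 0 fell in either. DBF4, the activator of the CDC7 kinase, rose by 1.62 and ORC6, of the origin recognition complex, by 1.25 in U87MGR, while GINS4, of the replicative helicase, rose by 2.65 and RRM2, of ribonucleotide reductase, by 1.69 in U87MGL. GINS4 was uneven in U87MGR (9.73 and 7.90).

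In 3 further lists no gene passed. Of all genes tested, 1.86% were called higher and 1.44% lower in U87MGR, and 3.02% and 1.80% in U87MGL. At an unadjusted p under 0.05 in limma, the shares were 11.0% and 9.78% in U87MGR and 13.2% and 10.1% in U87MGL. At such shares lists this small can hold 0 called genes, so these counts do not set them apart from all genes. Of 16 tested APC/C subunits and regulators, limma called 0 in U87MGR (2 higher and 1 lower before adjustment) and 0 in U87MGL (1 higher and 2 lower), with medians of 0.04 in U87MGR and 0.14 in U87MGL. The largest differences were those of UBE2S, the enzyme that extends ubiquitin chains, in U87MGR (0.57) and of the subunit gene ANAPC16 in U87MGL (-0.60). None of 20 CDK inhibitors, pocket proteins and antiproliferative genes was called (unadjusted 4 higher and 2 lower in U87MGR, 3 higher and 1 lower in U87MGL), with medians of 0.11 in U87MGR and 0.20 in U87MGL and CDKN2A at -0.84 in U87MGR and -0.85 in U87MGL. None of 10 G1 cyclins and related genes was called either (unadjusted 2 higher in U87MGR, 3 in U87MGL, 0 lower), with medians of 0.07 in U87MGR and 0.50 in U87MGL, CCND3 at 1.17 in U87MGR and CCND2 at 1.45 in U87MGL. In U87MG, CCND2 stood at 5.10 and 4.25, with a mean below the filter, so the size of its difference is uncertain.

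Between U87MGR and U87MGL limma called 0 genes in all 7 lists. At an unadjusted p under 0.05 the G1/S list held 1 higher and 4 lower genes, and each of the other 6 held 0 higher and at most 2 lower. The largest differences by list were MIS12 (-0.50), ANAPC15 (-0.41), NCAPD2 (-0.44), HAUS6 (-0.64), DBF4 (0.82), BTG1 (-0.47) and CCND2 (-1.77). CCND2, cyclin D2, lay at 4.12 and 4.60 in U87MGR and at 5.28 and 6.98 in U87MGL, with both U87MGR arrays below the filter, so the size and rank of its difference are uncertain. Its U87MGL replicates lay further apart than those of any mitosis gene in that group.

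**Figure D4:**
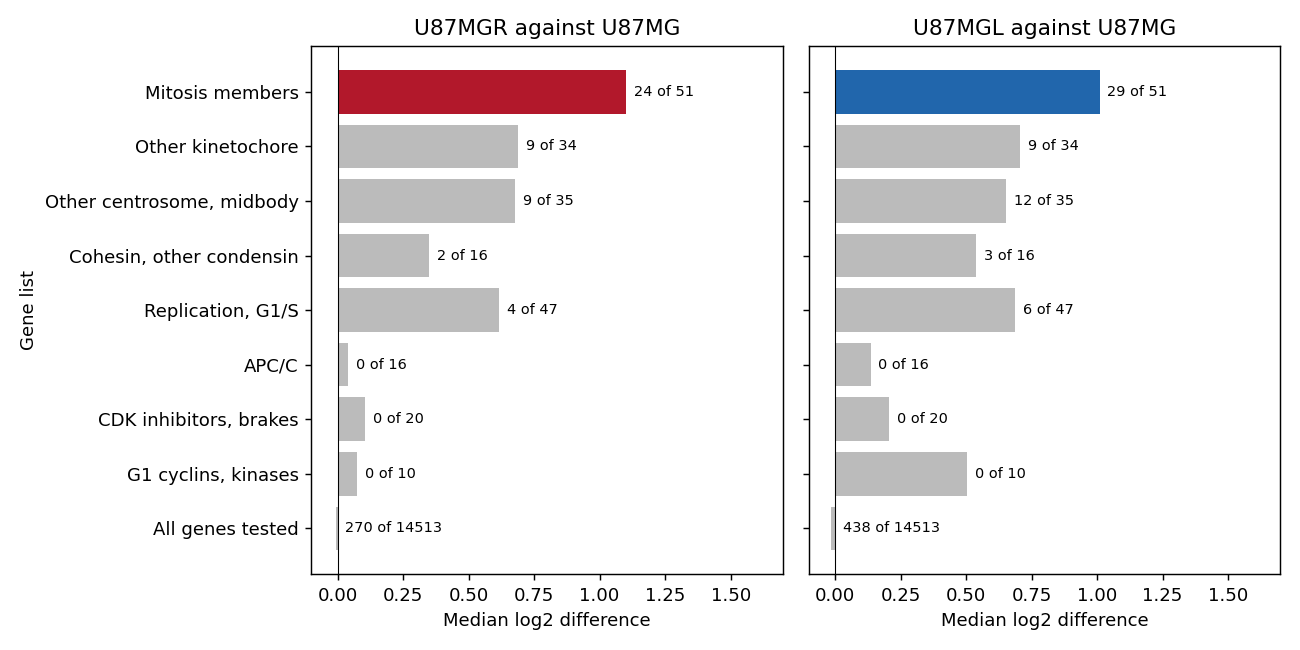
Median log2 difference from U87MG (bars) of the 51 mitosis genes, the 7 neighbouring lists and all genes tested, for U87MGR (left) and U87MGL (right); the numbers give genes called higher of genes tested. The median of the mitosis genes is 1.10 on the left and 1.01 on the right, that of APC/C genes 0.04 on the left and 0.14 on the right.

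Other probe sets of the same genes gave a check that does not rest on the choice of the brightest. Of the 51 genes, 25 had more than 1 probe set, with 44 further probe sets in all. Above the filter were 37, of which 36 lay above 0 in U87MGR against U87MG (median 0.81) and 35 in U87MGL against U87MG (median 0.87). In U87MGR against U87MGL 14 of the 37 lay above 0, with a median of -0.05. The genes lie on 18 chromosomes, with the most, 8, on chromosome 1.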

How the data were processed

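Biotin-labelled cRNA from total RNA of 6 cultures, extracted with TRIzol and an RNeasy kit per the labels' protocols, was measured on single-colour oligonucleotide arrays. For 54675 probe sets the authors deposited log2 signals, between 2.38 and 14.6, with array medians already alike. Their background correction, summary and normalization are not given in the sources used here, and no further scaling was applied. Probe sets were named through the platform's annotation: 41097 carried 1 gene symbol, 1801 several and 11777 none, and 41043 of those with 1 symbol matched the GRCh38.p14 annotation. Each gene took the values of the 1-symbol probe set with the highest mean, and was tested where that mean was at or above a log2 signal of 4.73, the 40th percentile over probe sets.

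A limma model (version 3.58.1, R 4.3.3) with a mean per group was fitted to the 6 arrays with moderated variances (3 residual and 4.05 prior degrees of freedom). Calls have a two-sided Benjamini-Hochberg adjusted p under 0.05 over the 14513 genes of a comparison. The p-values measure the spread between these samples, which may in part be technical, and precision is limited by the 6 arrays, with a median standard error of 0.19 per log2 difference. The fitting code was tested on simulated data.

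The 51 genes, their roles and the other lists were chosen with earlier results of these data known, so no list has a test or a p-value of its own. Genes named with values are the members with the largest and smallest differences per role and comparison, 7 standard mitotic genes in every comparison, the largest called genes of each other list (or the largest difference where none was called), and genes whose probe sets disagreed in direction. Further members are given to account for each role. Spike-in batches were found by average linkage on 18 hybridization and 27 labelling control probe sets. Equally numbered replicates did not deviate together: their deviations from the group means correlated across genes at 0.11 for U87MGR with U87MG, -0.09 for U87MGL with U87MG and 0.01 for U87MGR with U87MGL, so they were not treated as pairs. Alternatives were other probe set summaries, filters, scalings and variance models, fits of the groups compared alone, replicate and batch blocks, and leaving out each array.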

Additional observations from a re-analysis of the deposited data

How the results depend on the processing

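In 16 alternative settings no mitosis gene was called lower in any comparison and none was called in U87MGR against U87MGL. The count called higher by limma stayed at 22 to 30 in U87MGR and 26 to 32 in U87MGL (24 and 29 in the fit reported) with the mean of all probe sets, other filters on dim genes, quantile normalization, median centring, an intensity trend or the replicate block. The replicate block, whose numbers do not pair the samples, gave 22 in U87MGR and 27 in U87MGL. Over all genes tested, the settings named so far called 188 to 305 higher in U87MGR and 370 to 508 in U87MGL. With only the groups compared in the fit the count was 10 in U87MGR and 7 in U87MGL (48 and 49 at an unadjusted p under 0.05). Calls over all genes fell there too, to 111 higher in U87MGR and 124 in U87MGL, from 270 and 438 in the fit reported. With 2 spike-in batches as a block it was 0 and 0, and with 3 batches it was 5 and 0, with medians of 0.77 and 0.66. These fits have 2 and 1 residual degrees of freedom in place of 3, the 3-batch fit leaves U87MG replicate 2 out, and for U87MGL they reach U87MG through the U87MGR arrays. With 1 array left out, where the lone sample is assumed to vary like the other groups, the count ranged from 0 to 35 in U87MGR and from 0 to 41 in U87MGL, the highest counts being those without U87MG replicate 1. Without U87MG replicate 1, more of all genes tested were also called higher than in the fit reported, in both derivatives. The rise in the count there was thus not limited to the mitosis genes. With 1 array left out, the medians ranged from 0.86 to 1.31 in U87MGR and from 0.85 to 1.21 in U87MGL, and from -0.17 to 0.10 between U87MGR and U87MGL. Of the named mitosis genes no call turned its direction in 383 values of U87MGR and 399 of U87MGL, both against U87MG, of which 102 and 100 lost the call and 11 and 18 gained one. INCENP, not called, changed sign 2 and 3 times. MKI67 was called in 14 of 17 settings in either derivative, and no mitosis gene was called in more. Other genes called in both derivatives passed in fewer settings. CDK1 did so in 6 for U87MGR and 5 for U87MGL, AURKB in 7 and 8, and FOXM1 in 8 and 9. The signal of INCENP, the dimmest of the genes, lay least above the filter.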

Other observations

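Among genes outside the 51, the pattern over the 6 arrays most like the mean of the mitosis genes was that of RBM25, a splicing factor (Pearson's r = 0.996), NCEH1, a cholesterol ester hydrolase (0.995), CIP2A, an inhibitor of protein phosphatase 2A (0.993), ACTN4, an actin crosslinker (0.992), and DIAPH3, a formin that nucleates actin filaments (0.991). They were ranked among 964 genes whose SD over the arrays was at least 0.59, so high values at the top are set by the ranking. The 6 points of each gene fall into derivative and parental arrays, and r is given as a description of the pattern. RBM25 was at 9.96 and 9.75 in U87MGR, 9.68 and 9.81 in U87MGL, and 8.76 and 8.36 in U87MG. ACTN4 was at 11.67 and 11.53 in U87MGR, 11.76 and 11.71 in U87MGL, and 10.76 and 10.35 in U87MG. Their differences, with those of NCEH1, CIP2A and DIAPH3, ran from 1.05 to 1.74 in U87MGR and from 1.18 to 1.86 in U87MGL on the log2 scale.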
